A study of Mus musculus with 45 samples.

Results

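Mammary tumors of 3 mouse models built on the loss of tumor suppressor function were compared with tumors of 5 models built on a mammary-directed oncogene, by array comparative genomic hybridization (CGH). Array CGH labels tumor DNA and normal DNA with different dyes and hybridizes both to one array, so that the ratio of the dyes at a probe follows the number of DNA copies in the tumor. The first class held 16 of the 45 tumors: 5 of the genotype BRCA1fl/fl;p53+/-;MMTV-cre (the BRCA1 model, also written BRCA1-/-;p53+/-), 6 of p53fl/fl;MMTV-cre grown as transplants (p53-/-) and 5 carrying the C3(1)/SV40 T/t-antigens transgene (C3(1)-Tag). The second class held the other 29, with 5 MMTV-c-Myc, 9 MMTV-PyMT, 5 MMTV-Her2/neu, 5 MMTV-H-Ras and 5 MMTV-Wnt1 tumors. The model named in the labels decided the class of each tumor. All were primary mammary tumors of female mice, and all were hybridized against DNA of pooled mouse spleens. The MMTV promoter directs Cre or the oncogene mainly to mammary epithelium, and the C3(1) promoter directs the viral antigens to epithelium of the mammary gland and other tissues. Mice of the BRCA1 model start with 1 intact p53 allele. Age and the number of animals behind each model were not in the labels, so p-values measure the spread between tumors.

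p53 halts or kills cells with damaged DNA or with extra chromosomes, and BRCA1 is needed to repair double-strand breaks by homologous recombination. The large T antigen of SV40 binds and inactivates both p53 and the Rb proteins, so that C3(1)-Tag tumors lose suppressor function without a deletion of the genes. Myc, H-Ras, Her2/neu, the polyoma middle T antigen (PyMT) and Wnt1 instead drive growth through transcription, receptor or Wnt signaling, and the endogenous suppressor genes of those mice start intact. Changes of whole chromosomes arise from faulty segregation, whereas changes of part of a chromosome need a break in DNA, and an amplicon is a short region copied many times.

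Values below are log2 ratios of Cy3 over Cy5 with the median of the autosomes set to 0. The labels name Cy5 as the tumor dye, which would turn every sign, but the files went against them. The authors' interval calls had the sign of Cy3 over Cy5 in 282 of 295 intervals (95.6%). The probe in Brca1 at chr11:101340828-101340887 (build mm8) lay between -5.14 and -1.69, with a median of -4.69, in the 5 tumors of the BRCA1 model and between -0.64 and 0.78 in the other 40. The second Brca1 probe, at chr11:101314063-101314118, lay between 0.15 and 0.81 in the same 5 tumors. The Wnt1 probe lay between 0.07 and 1.497, with a median of 1.33, in MMTV-Wnt1 tumors against a highest value of 0.80 elsewhere. The genes of other transgenes did not mark their models. Myc had a mean of 0.17 in MMTV-Myc and 1.35 in MMTV-PyMT tumors. Erbb2 had 0.04 in MMTV-Her2/neu and 0.29 in the BRCA1 model, and Hras1 had -0.03 in MMTV-HRas and 0.18 in MMTV-PyMT. The probes of Trp53 lay between -0.64 and 0.58 (median -0.086) and between -0.53 and 0.02 (median -0.33) in p53-/- tumors, and whether they lie in the deleted part was not tested.

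Some arrays stood apart before any comparison. C3(1)-Tag replicate 3 and MMTV-Her2/neu replicate 2 had nearly the same profile (Pearson r = 0.960 across bins), as did C3(1)-Tag replicate 4 and MMTV-Her2/neu replicate 3 (r = 0.928), although the members of each pair belong to opposite classes. Of the other pairs of tumors the highest r was 0.850 and the median 0.080. MMTV-Wnt1 replicate 1 had the Wnt1 value of 0.07, while its 4 model mates were above 1. The class differences are therefore given also without these 5 tumors. Single probes that lay over 6 probe SD away from their neighbors had a median of 516.5 per tumor in p53-/-, 292 in the BRCA1 model, 160 in MMTV-Her2/neu (highest 631), 125 in MMTV-PyMT, 93 in C3(1)-Tag, 81 in MMTV-HRas, 67 in MMTV-Wnt1 and 35 in MMTV-Myc, and the class medians were 242 and 96. In p53-/- replicates 1 to 6 their number was 513, 133, 106, 520, 665 and 551. Such probes produced short segments of 5 probes, so breakpoints, whole-chromosome changes, focal changes and high-level gains are given as deposited and again after such probes were clipped toward the running median of 7 probes. Their origin was not tested. Noise between neighboring probes was alike in the classes, with median probe SDs of 0.227 and 0.234. In DNA from a whole tumor, fewer tumor cells and a smaller change in copy number cannot be told apart.

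Tumors of the suppressor loss models carried altered copy number over a larger share of the genome. The altered share, the percentage of 2057 autosomal bins of 1 Mb that were gained or lost by at least 0.2, was 41.7% ± 27.5 (SD, n = 16) in suppressor loss models and 14.1% ± 16.4 (SD, n = 29) in oncogene models. It ran from 0.0486% through a median of 47.6% to 84.0% in the first class and from 0% through 7.44% to 54.4% in the second. The classes overlapped, but 8 of the 16 suppressor loss tumors exceeded the highest oncogene tumor and 14 exceeded the oncogene median. The difference of 27.6 percentage points was larger than the spread between tumors (two-sided permutation test, adjusted p = 0.000303 over 7 measures), and it was 30.7 points without the 5 tumors of doubtful identity. Without those tumors the other 6 measures described below differed by 185 breakpoints, 12.5 points of gained share, 18.2 points of lost share, 3.24 whole-chromosome changes, 71.4 focal changes and 28.7 high-level gains per tumor, and all 7 passed, as they did with discordant probes clipped.

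The classes were not uniform within. The model means were 53.3% ± 23.0 (SD, n = 6) for p53-/-, 36.7% ± 23.1 (SD, n = 5) for BRCA1-/-;p53+/- and 32.6% ± 36.1 (SD, n = 5) for C3(1)-Tag. MMTV-Her2/neu, at 33.4% ± 22.8 (SD, n = 5), lay above C3(1)-Tag, and MMTV-HRas followed at 26.2% ± 9.03 (SD, n = 5). MMTV-Wnt1 (7.41% ± 13.2, SD, n = 5), MMTV-PyMT (7.01% ± 6.57, SD, n = 9) and MMTV-Myc (1.96% ± 3.10, SD, n = 5) had few changes, and MMTV-Wnt1 without its doubted replicate 1 was at 1.53%. Tumors of one model share its genotype, so the classes were also compared over the 8 model means, where 56 assignments of models to classes exist and the smallest possible exact p is 0.0179. There the altered share differed by 25.7 points with an exact permutation p = 0.0536 (adjusted p = 0.188). No measure passed an adjusted p of 0.05 over models, as deposited or clipped, and the class differences below hold over tumors only. Without the p53-/- model the differences in breakpoints (48.2), gained share (5.48 points), whole-chromosome changes (1.79) and focal changes (17.8) no longer passed over tumors. Among the 5 suppressor loss and 11 oncogene tumors of the one scan date that held enough of both classes to test, the altered share differed by 30.2 points (exact permutation p = 0.0325, not adjusted), the lost share by 16.4 points (exact p = 0.0243) and high-level gains by 27.0 per tumor (0.0114). The other 4 measures had an exact permutation p of 0.0554 to 0.219 there, and with discordant probes clipped the altered share, breakpoints and lost share had a p of 0.0206 to 0.0325 and the other 4 of 0.0545 to 0.157. Only 2 slides held both classes, each with 1 C3(1)-Tag array and 3 oncogene arrays, and on these the difference in altered share was the other way, at -11.9 and -20.1 points, and -15.99 with slide as a block, a comparison that could not reach an exact p of 0.05.

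**Figure D1:**
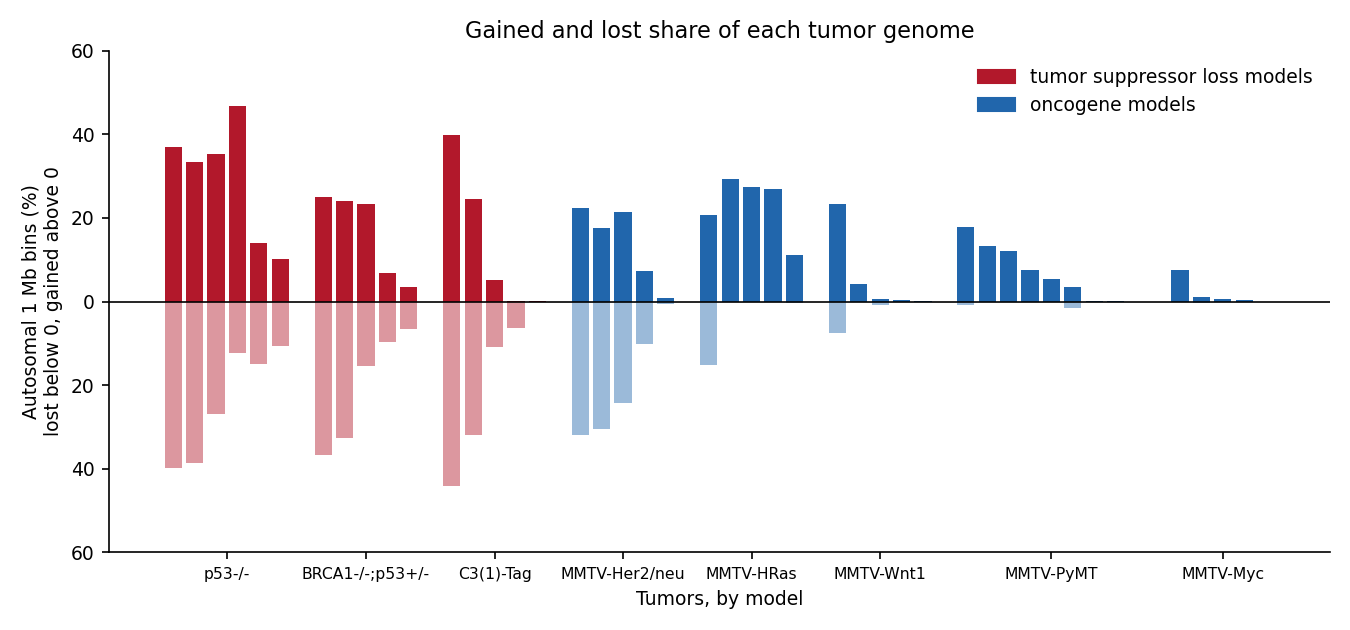
Percentage of autosomal 1 Mb bins gained (above 0) and lost (below 0) in each of the 45 tumors, one bar per tumor, grouped by model and class. Losses reached 44.1% of the genome in suppressor loss models, while in oncogene models losses above 7% were seen in 4 MMTV-Her2/neu tumors, 1 MMTV-HRas tumor (15.3%) and MMTV-Wnt1 replicate 1 (7.49%).

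Both losses and gains covered more of the genome in suppressor loss models. The lost share was 21.1% ± 14.3 (SD, n = 16) against 4.29% ± 9.26 (SD, n = 29), a difference of 16.8 points (permutation test, adjusted p = 0.000175), and the gained share was 20.6% ± 15.2 against 9.78% ± 10.001, a difference of 10.8 points (adjusted p = 0.00883). The lost share had a median of 15.1% and a range of 0% to 44.1% in suppressor loss models, against a median of 0.0486% and a range of 0% to 31.9% in oncogene models. Under 1% of the genome was lost in 22 of 29 oncogene tumors and in 1 of 16 suppressor loss tumors. By model the mean lost share was 23.9% in p53-/-, 20.2% in BRCA1-/-;p53+/-, 18.7% in C3(1)-Tag and 19.5% in MMTV-Her2/neu, and it was at most 3.11% in the other 4 oncogene models. Of the tumors with at least 1% of the genome altered, 12 of 15 in suppressor loss models had more lost than gained, against 5 of 21 in oncogene models, of which 4 were MMTV-Her2/neu and 1 was MMTV-Wnt1. The median part of the altered bins that was lost was 53.7% and 4.69%. The difference in lost share was 5.13 points and did not pass when taken from the authors' intervals, against 18.7 points of gained share, and within scan date 2, with 3 tumors of each class, the differences were 1.98 and 11.9 points. Whether the lost share differed by more than the gained share was not tested, and with the dyes read as labelled the words gain and loss would change places.

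Breakpoints, the boundaries between adjacent segments whose means differed by at least 0.2, were also more numerous in suppressor loss models, but their number depended on how single probes were treated. As deposited there were 220 ± 208 per tumor (SD, n = 16) against 82.6 ± 120 (SD, n = 29, permutation test, adjusted p = 0.00883), and with discordant probes clipped 36.6 ± 24.4 against 10.6 ± 11.6 (adjusted p = 7.00e-05). The clipped count ran from 4 through a median of 28.5 to 79 in suppressor loss tumors and from 0 through 7 to 43 in oncogene tumors. p53-/- tumors had the most, at 53.7 ± 22.6 (SD, n = 6), followed by BRCA1-/-;p53+/- at 40.6 ± 17.4 (SD, n = 5). C3(1)-Tag tumors, at 12.2 ± 9.76 (SD, n = 5), lay below MMTV-Her2/neu at 22.8 ± 15.5 and within the range of the oncogene model means. MMTV-Wnt1 tumors had 16 ± 15.1 with the doubted replicate 1 and 10.5 ± 10.1 (SD, n = 4) without it, when C3(1)-Tag without its doubted tumors had 10.3 ± 7.51 (SD, n = 3). MMTV-HRas had the fewest, at 2.8 ± 4.38, although its altered share was the second highest of the oncogene models. The pairs of nearly identical profiles show what the clipping does: as deposited MMTV-Her2/neu replicate 2 had 644 breakpoints and C3(1)-Tag replicate 3 had 28, against 14 and 4 after clipping. With normexp background correction in place of the processed signals the difference was 15.4 and did not pass. With scan date as a block the difference of 111 as deposited did not pass, the clipped difference of 22.2 did (adjusted p = 0.0246), and within scan date 6, with 3 suppressor loss and 2 oncogene tumors, the clipped difference was -10.2. Over the 8 model means the clipped difference of 24.4 had an exact permutation p = 0.0536 (adjusted p = 0.075).

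**Figure D2:**
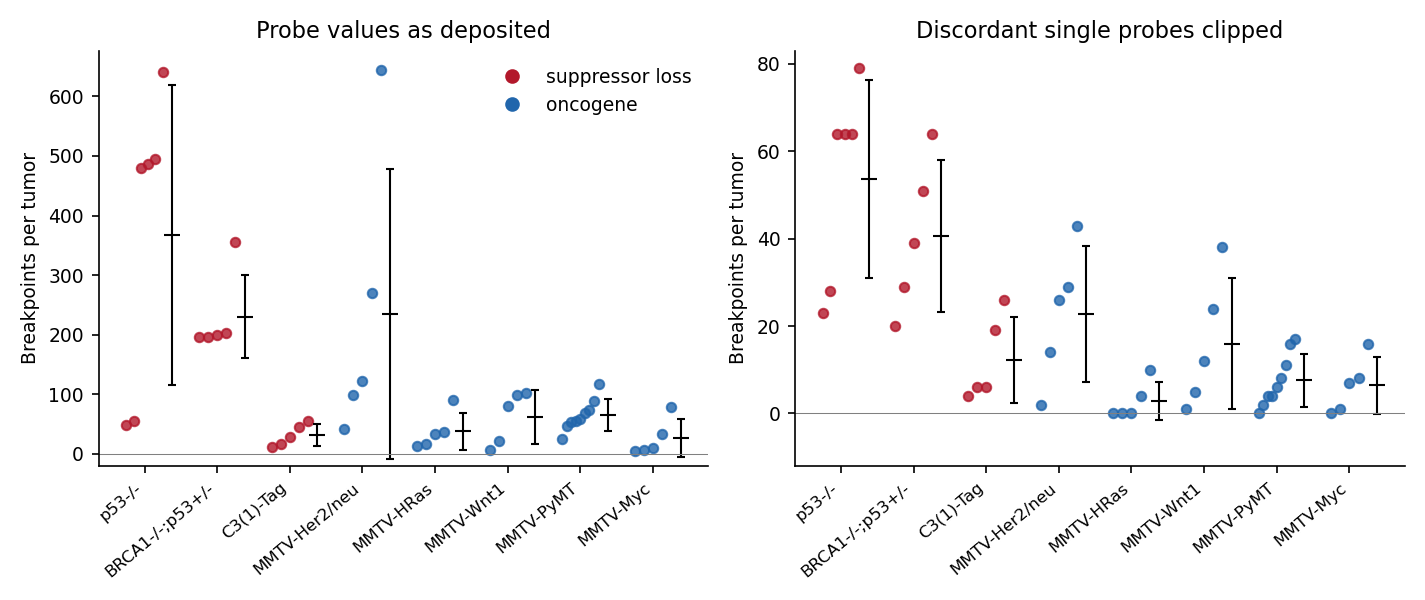
Breakpoints per tumor by model, as deposited in one panel and with discordant single probes clipped in the other. Points are tumors and bars are the mean ± SD. After clipping p53-/- and BRCA1-/-;p53+/- had the highest means, 53.7 and 40.6, and C3(1)-Tag (12.2) lay within the range of the oncogene model means.

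The kind of change differed by model as well as by class. A whole-chromosome change was an autosome with at least 90% of its probes in 1 state, a focal change spanned at most 10 Mb, and the rest were called partial. Whole-chromosome changes numbered 5.44 ± 4.35 per tumor (SD, n = 16) against 2.41 ± 2.93 (SD, n = 29, permutation test, adjusted p = 0.00937), and 5.88 ± 4.95 against 2.52 ± 3.08 with discordant probes clipped (adjusted p = 0.00829). With scan date as a block the difference as deposited, 3.58, did not pass and the clipped one, 4.14, did (adjusted p = 0.0418). With discordant probes clipped, focal changes numbered 10.5 ± 8.29 against 3.55 ± 3.13 (adjusted p = 0.00021). With scan date as a block the difference of 5.19 did not pass (adjusted p = 0.0569), and within scan date 6 it was -3.83. Also with probes clipped, whole losses averaged 3.19 per tumor against 0.724 and whole gains 2.69 against 1.79, values given here without a test. Partial changes had a mean of 6.00 per tumor against 0.759 (8.06 against 0.931 as deposited), also untested. With probes clipped, 96 partial changes were found in the 16 suppressor loss tumors, with a median length of 39.6 Mb, and 22 in the 29 oncogene tumors.

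BRCA1-/-;p53+/- tumors had 11.2 ± 8.50 partial changes per tumor (SD, n = 5) covering 483 Mb on average, against 373 Mb in whole chromosomes, except that replicate 4 had 1 partial change of 13.5 Mb beside 348 Mb in whole chromosomes. p53-/- tumors had 5.83 ± 3.82 partial changes (SD, n = 6) covering 268 Mb beside 1001 Mb of whole-chromosome change. C3(1)-Tag tumors had 1 ± 1.41 partial changes (SD, n = 5) covering 76.7 Mb, and 730 Mb in whole chromosomes. MMTV-Her2/neu tumors had 719 Mb in whole chromosomes and 31.7 Mb in partial changes, and 2 of the 5 tumors in each of these models are the pairs of near-identical profiles. Without those, the partial changes covered 83.3 Mb in C3(1)-Tag and 15.0 Mb in MMTV-Her2/neu. In MMTV-HRas tumors, where 635 Mb of whole-chromosome change stood beside 9.64 Mb of partial change, the whole-chromosome part of the altered length was 93.9% to 100%. As deposited, focal changes numbered 86.4 ± 88.6 against 34.0 ± 45.6 (adjusted p = 0.00937), with a median size of 5 probes in both classes, the fewest that a segment may hold. With normexp background correction the difference was -0.0948, and with scan date as a block it was 39.9 and did not pass.

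**Figure D3:**
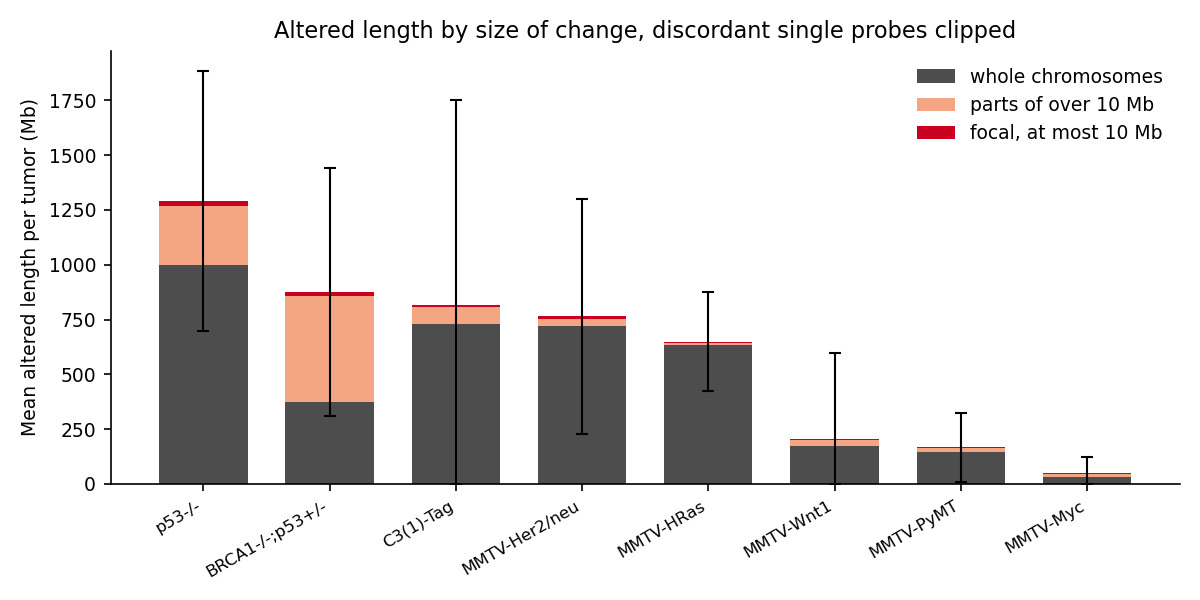
Mean altered length per tumor in Mb for each model, with discordant probes clipped, stacked by whole-chromosome, partial (over 10 Mb) and focal (at most 10 Mb) changes. Error bars are the SD of the total, drawn no lower than 0. Partial changes made up the larger part only in the BRCA1 model, at 483 Mb against 373 Mb in whole chromosomes.

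Losses of chromosomes 4, 11 and 14 differed between the classes over tumors, both as deposited and with discordant probes clipped, but not under every setting. Each of 19 autosomes was tested for the percentage of its probes gained and lost, 38 tests in all. As deposited 15 of 38 (39.5%) passed an adjusted p of 0.05, and with discordant probes clipped 3 (7.89%). Chromosome 14 was lost over 31.8% of its probes on average in suppressor loss models and 0.331% in oncogene models (permutation test, adjusted p = 0.00418, clipped 0.00722). At least 50% of it was lost in 5 of 16 suppressor loss tumors, of which 3 were p53-/-, 1 BRCA1-/-;p53+/- and 1 C3(1)-Tag, while no oncogene tumor had lost more than 4.13%. Rb1, the retinoblastoma suppressor gene, lies on chromosome 14 of the mouse, and its own copy number did not pass, with a class difference of -0.20 (SE 0.133, limma adjusted p = 0.443).

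Chromosome 4, which carries the Cdkn2a suppressor locus (class difference -0.06, SE 0.0752, adjusted p = 0.727), was lost over 33.9% against 4.17% of its probes (adjusted p = 0.0103, clipped 0.0229). At least 50% of it was lost in 5 suppressor loss tumors, 2 C3(1)-Tag, 2 p53-/- and 1 BRCA1-/-;p53+/-, and in 1 oncogene tumor, an MMTV-HRas. Chromosome 11, which carries Trp53 and Brca1, was lost over 29.5% against 4.02% (adjusted p = 0.0190, clipped 0.0229), and at least 50% was lost in 3 suppressor loss tumors and in 1 MMTV-Her2/neu tumor. In the BRCA1 model the loss of chromosome 11 was partial, with a median of 37.2% and a highest value of 47.9%. The other 12 calls as deposited, gains of chromosomes 9, 13 and 16 and losses of 6, 8, 10, 12, 13, 15, 17, 18 and 19, did not pass after clipping. No chromosome passed with normexp background correction, over the 8 model means, with scan date as a block or within the largest scan date, and without the p53-/- model 1 of the 38 tests passed.

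Some chromosomes were lost over at least 50% in single models only, and others changed in models of both classes. At least 50% of chromosome 18 was lost in 3 tumors of the BRCA1 model and in no other tumor, and chromosome 19 likewise in 4 p53-/- tumors alone. Loss of chromosome 10 was shared with an oncogene model, with means of 60% in C3(1)-Tag, 47.0% in p53-/-, 35.9% in BRCA1-/-;p53+/- and 82.1% in MMTV-Her2/neu. The same held for chromosome 7, lost over 56.7% in C3(1)-Tag and 75.1% in MMTV-Her2/neu, for which the classes did not pass (46.6% against 16.5%, adjusted p = 0.0635). Chromosome 6 was gained over 50.6% against 22.5% (adjusted p = 0.0635), at 70.1% in p53-/-, 59.6% in BRCA1-/-;p53+/- and 79.9% in MMTV-HRas, an oncogene model. The C3(1)-Tag and MMTV-Her2/neu pairs of near-identical profiles enter these means on both sides, and without the 5 doubted tumors 23 of the 38 tests passed (15 with probes clipped).

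**Figure D4:**
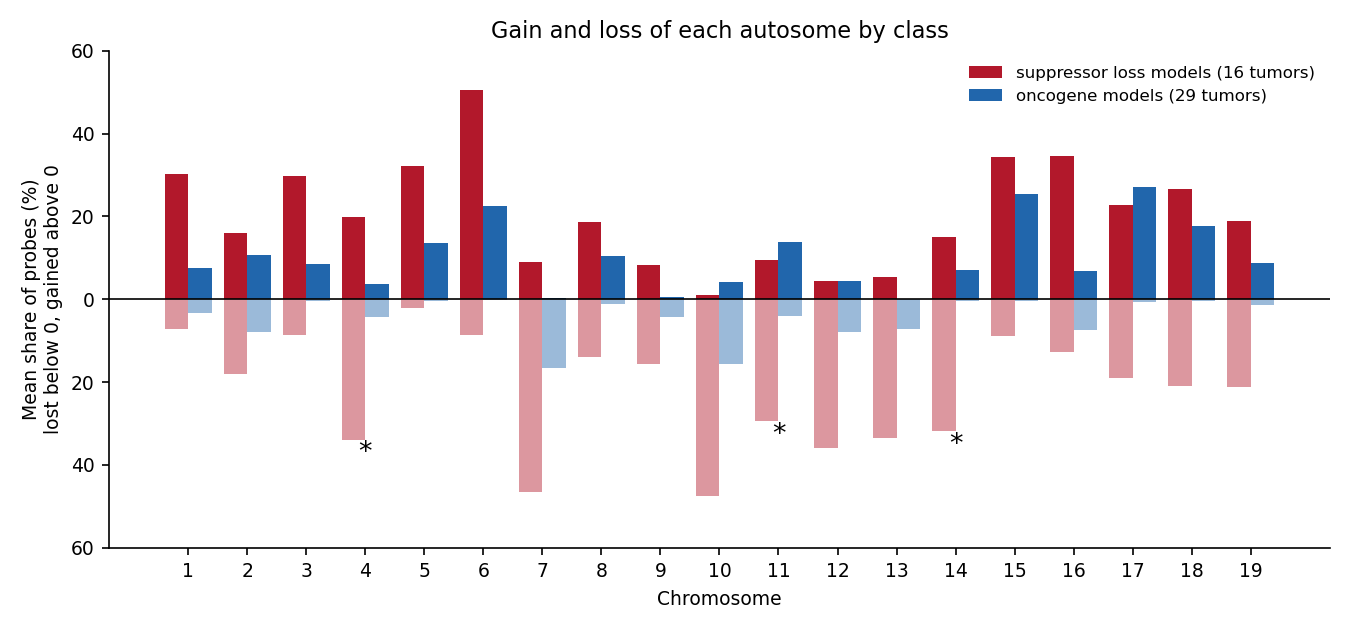
Mean percentage of probes gained and lost on each autosome in suppressor loss and oncogene models. Asterisks mark an adjusted permutation p under 0.05 both as deposited and with discordant probes clipped, which held for losses of chromosomes 4, 11 and 14.

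Single loci were compared with limma, with each model's mean weighted equally within its class. Of 2057 bins 7 (0.340%) passed an adjusted p of 0.05, 3 higher and 4 lower in suppressor loss models, and 461 had an unadjusted p under 0.05. The clearest was chr3:35000001-36000000, which holds the start of Atp11b, a gene for a phospholipid-transporting ATPase, where the class difference was +0.72 (SE 0.127, adjusted p = 0.00168). The value was 1.69, 1.02, 0.17, 1.54, 2.07 and 1.30 in p53-/- replicates 1 to 6, and 1.41 and 1.82 in BRCA1-/-;p53+/- replicates 1 and 4 beside 0.03 to 0.07 in the other 3. C3(1)-Tag tumors lay between -0.11 and 0.81, and the oncogene models reached at most 0.66. Over the probes of Atp11b itself, all 6 p53-/- tumors (0.69 to 1.29) lay above the highest oncogene tumor (0.60). The class difference for the gene was +0.34 (adjusted p = 0.0206), a call lost with probes clipped (0.141) and without BRCA1-/-;p53+/- replicate 4 (0.0522) or C3(1)-Tag replicate 5 (0.0503). The bin at chr17:39000001-40000000, with Crisp1, a gene for a secreted protein of the male reproductive tract, differed by -0.36 (adjusted p = 0.00699), being below 0 in 4 of 5 BRCA1-/-;p53+/- and 5 of 6 p53-/- tumors and above 0 in all 5 C3(1)-Tag tumors. In that bin MMTV-PyMT tumors lay between -0.31 and 0.56 (median -0.02) and MMTV-Wnt1 tumors between -0.24 and 0.27. The lowest values of MMTV-Myc, MMTV-Her2/neu and MMTV-HRas were 0.05, 0.06 and 0.14. The Atp11b and Crisp1 bins also passed without the 5 doubted tumors (adjusted p = 0.0113 and 0.0357). The remaining 5 had an adjusted p = 0.0434 each, did not pass without those tumors, and held Met and Wnt2 on chromosome 6 and the transcripts AK076759, AK015500, 2310004I24Rik and AK132896.

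Of 20034 named genes 562 (2.81%) passed, 276 higher (1.38%) and 286 lower (1.43%) in suppressor loss models, and 170 (0.849%) passed with discordant probes clipped. Leaving out p53-/- replicate 5 raised the number of bins from 7 to 112, and without any 1 of 23 other tumors it fell to 2. Leaving out C3(1)-Tag replicate 5 lowered the genes to 335 and leaving out BRCA1-/-;p53+/- replicate 3 to 355. With the model as a random block in place of equal weights, no bin passed and 6 genes did. None of the genes named here as passing was among those 6, their adjusted p with that block being 0.258 for Crisp1, 0.260 for Mrgprb1, 0.326 for Wnt2, 0.465 for Met, 0.526 for Atp11b and at most 0.554, for Brca2.

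Most genes of the pathways that define the classes did not pass the test for a difference in copy number. Of 7 lists, none of the 16 measured genes of the p53 pathway and none of 15 in the Rb pathway with the G1 cyclins passed. None of 11 genes of non-homologous end joining passed. In homologous recombination 2 of 18 passed, in mitosis and the spindle checkpoint 1 of 19, among mammary tumor oncogenes 1 of 25 and among mammary tumor suppressors 1 of 19, against 2.81% of all genes. At an unadjusted p under 0.05 there were, in the same order, 2, 3, 0, 2, 5, 9 and 3 genes in the lists, and 3565 of the 20034 genes in all. The list medians ran from -0.06 for mammary tumor suppressors to 0.03 for non-homologous end joining, and the median over all genes was -0.00. No list is described as set apart from the rest of the genes.

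The 5 listed genes that passed were Brca1, Brca2, Mad2l1, Met and Fbxw7. Brca1, deleted by design in 1 model, was lower by 0.68 (adjusted p = 1.22e-05). Its mean was -1.79 in the BRCA1 model and 0.00 and 0.05 in p53-/- and C3(1)-Tag tumors, and the call rested on the single deleted probe (adjusted p = 0.5995 when clipped). Fbxw7, a ubiquitin ligase subunit that marks cyclin E and Myc for degradation and acts as a tumor suppressor, was higher by 0.39 (SE 0.0819, adjusted p = 0.00377). It was at -0.04, 0.42 and 0.89 (lowest, median, highest) in suppressor loss tumors and at -0.65, 0.10 and 0.57 in oncogene tumors. The classes overlapped, with 13 of 16 and 8 of 29 tumors at or above 0.2, and the call held when clipped (adjusted p = 0.0292) and without the doubted tumors (0.00480) but not with the model as a random block (0.326).

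Mad2l1, which encodes the MAD2 protein of the spindle checkpoint and was read by 1 probe, was higher by 0.40 (SE 0.0923, adjusted p = 0.00935). It was at 0.01, 0.47 and 1.28 in suppressor loss tumors and -0.41, 0.11 and 0.62 in oncogene tumors, and it did not pass when clipped (adjusted p = 0.0634). Brca2, the partner of BRCA1 in homologous recombination, was higher by 0.25 (SE 0.0662, adjusted p = 0.0287), with values of -0.19, 0.27 and 0.84 against -0.32, -0.05 and 0.56. Its call was lost without any 1 of BRCA1-/-;p53+/- replicate 2, C3(1)-Tag replicates 3 and 5 and p53-/- replicate 6 (adjusted p = 0.0501 to 0.0575), and also when clipped (0.0789) or without the doubted tumors (0.0925).

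High-level gains, segments with a mean of at least 1, numbered 28.2 ± 26.9 per tumor (SD, n = 16) against 3.41 ± 4.62 (SD, n = 29, permutation test, adjusted p = 0.000175) as deposited and 3.19 ± 2.48 against 0.759 ± 1.43 (adjusted p = 0.000434) with discordant probes clipped. Present in at least 2 tumors of a class were 100 regions in suppressor loss and 19 in oncogene models as deposited, and 6 and 3 after clipping. A recurrent high-level gain of suppressor loss models lay at Met, the receptor tyrosine kinase for hepatocyte growth factor, within chr6:15327864-21715018 (mm8). Met stood at 4.57, 0.00, 0.04, 5.47, 5.04 and 5.10 in p53-/- replicates 1 to 6. In BRCA1-/-;p53+/- replicates 1 to 5 it stood at 0.69, 0.09, 5.50, 0.31 and 0.04, and in C3(1)-Tag tumors between 0.01 and 0.72. In the 29 oncogene tumors the lowest, median and highest values were -0.20, 0.01 and 1.92, the highest being the doubted MMTV-Wnt1 replicate 1 and the next 0.77. Met was thus amplified above 4 in 5 of 16 suppressor loss tumors and in none of the oncogene tumors, and its values fell into separate groups with none between 0.72 and 4.57 in suppressor loss tumors.

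The smallest of the 5 Met amplicons, in p53-/- replicate 6, spanned chr6:17237755-18022093 (0.784 Mb, 16 probes, mean 4.90), and Wnt2, the neighbor of Met that encodes a Wnt ligand, was higher with it (+1.41, adjusted p = 0.00140). For Met the class difference was +1.4803 (SE 0.374, adjusted p = 0.0201), with an adjusted p = 0.0507 without the 5 doubted tumors. A mean over such values describes no tumor.

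Further recurrent high-level gains of suppressor loss tumors were short and of lower ratio, and lay in p53-/- and BRCA1-/-;p53+/- tumors. At chr7:48066915-48316952, with Mrgprb1, a receptor of the Mas-related family, 9 tumors had segment means of 1.1004 to 1.92. The probes of the gene stood between 1.17 and 2.41 in all 5 tumors of the BRCA1 model, between 2.64 and 3.77 in 4 p53-/- tumors, between -0.67 and 0.02 in C3(1)-Tag tumors and at most at 1.096 in oncogene tumors (class difference +1.21, adjusted p = 0.000942). At chr1:175569070-175792199, with the transcript AK142592, segment means were 1.39 to 2.09 in 5 tumors (class difference over the transcript +0.66, adjusted p = 0.00950). At chr3:37541234-37711328, with Nudt6, 2 p53-/- tumors had means of 1.66 and 1.71. The 1 probe of Nudt6 did not pass (class difference +0.74, adjusted p = 0.201), and 5 oncogene tumors were at or above 1 on it, up to 2.14. These regions have the same ends in several tumors of the same models, in which discordant probes were shared within the model in 50% (p53-/-) and 26.1% (the BRCA1 model) of cases at the median, and the part of such probes in these gains was not tested. The p53-/- tumors with the Mrgprb1 and AK142592 gains were replicates 1, 4, 5 and 6, which had 513 to 665 discordant probes and also the Met amplicon. Those with the Nudt6 gain were replicates 2 and 3, with 133 and 106.

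Recurrent high-level gains of oncogene models after clipping included chr4:111570716-112266249, with A030013N09Rik, in 3 MMTV-Wnt1 tumors (means of 3.20 to 3.78). The highest of these was the doubted MMTV-Wnt1 replicate 1. Within the same region p53-/- replicate 4 had a high-level gain of 1.42, and MMTV-PyMT replicate 4 a segment at -1.16. Another lay at the distal end of chromosome 11, chr11:112480026-121652625, in 2 MMTV-Myc tumors (1.67 to 2.78). There BRCA1-/-;p53+/- replicate 3 also had short high-level segments, with means of 1.58 and 1.21.

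**Figure D5:**
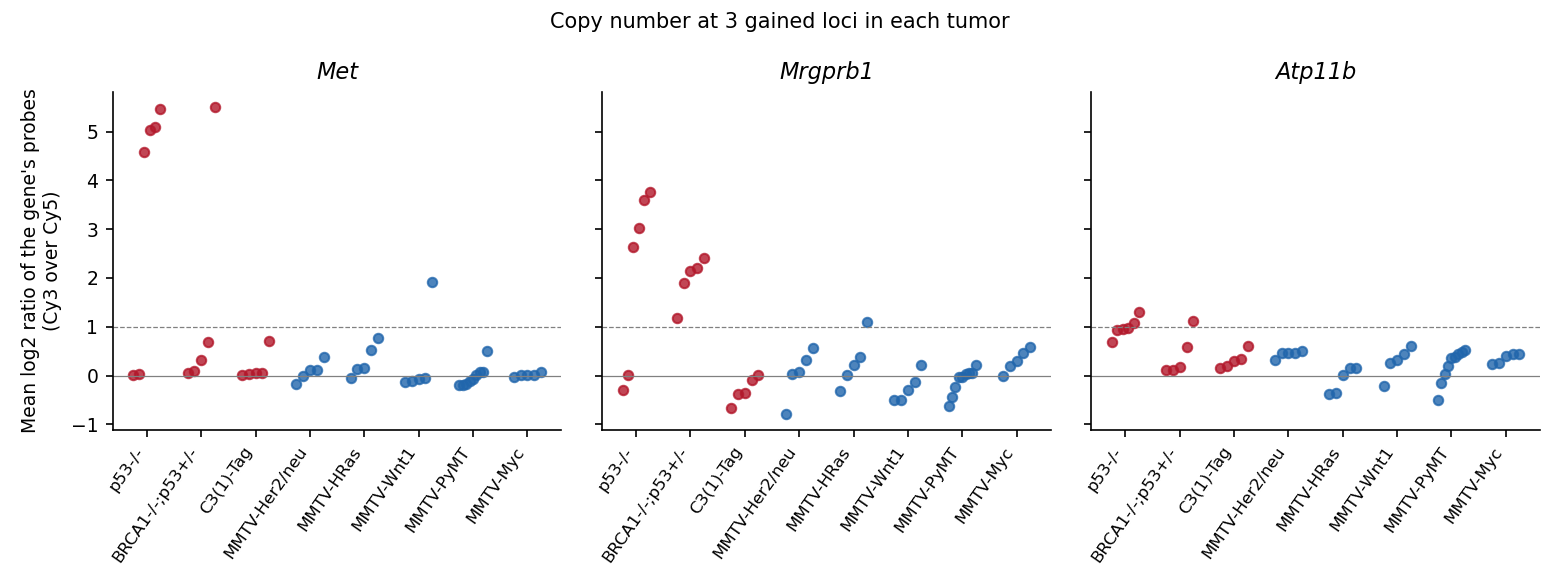
Log2 ratio of Met, Mrgprb1 and Atp11b in each tumor by model, red for suppressor loss and blue for oncogene models, with a dashed line at 1. Met values above 4 occurred in 4 p53-/- tumors and 1 BRCA1-/-;p53+/- tumor, Mrgprb1 values above 1.1 in all 5 tumors of the BRCA1 model and 4 p53-/- tumors, and Atp11b was highest in p53-/- tumors.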

How the data were processed

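Tumor and reference DNA of 45 mammary tumors had been hybridized to 2-color Agilent 44K mouse arrays by the authors. The deposited scanner tables give a log10 ratio of red over green, processed intensity in each channel, and spot flags, made with Agilent Feature Extraction (9.5.1.1 in the file headers, 10.7 in the submitters' processing notes), with probe positions in mm8. The deposited interval table gives the authors' intervals with a count of probes and a mean log2 ratio, and served for the direction check and as an alternative. The tables of filtered intervals per model, and the p-values of the interval table, were not used.

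For each array the log10 ratio was turned to log2 of Cy3 over Cy5, outlier spots were left out and the autosomal median was subtracted, with no loess. A mean-based binary segmentation (split statistic 6, at least 5 probes) gave segments, called at 0.2. Bins of 1 Mb held at least 3 probes and genes were averaged over their probes (9320 of 20034 genes had 1). Class measures were compared by two-sided permutation of tumors (100000 resamples, Benjamini-Hochberg over 7 measures, smallest p 1e-05) and by exact permutation of the 8 model means, and bins and genes by limma 3.58.1 (R 4.3.3) with model means weighted equally. Scripts ran in Python 3.11.15 with numpy 2.4.6 and scipy 1.17.1, and were tested on simulated data. Arrays give no read depth, and the number of tumors and probes limits precision.

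The classes, gene lists and tests were chosen with earlier results of these data known. Named genes were the targeted genes, the gene with the lowest p in each run of called bins, up to 4 called members per list, and the listed oncogene or highest gene of each high-level gain in at least 2 tumors of a class. The last step was limited, after values were seen, to gains kept after clipping. Clipping of probes to the running median of 7 probes ± 2 probe SD was added after seeing the data, because single probes made segments. No correction for base content was made, as no genome of this build was used. Alternatives changed centring, thresholds, background, dye, bins, batch, model and tumors. Some high-level gains that met the rule are not reported here.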

Additional observations from a re-analysis of the deposited data

Results flagged for a closer look

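Within a model, 13 of 56 sets of 4 to 10 tumors held 1 tumor far above the rest by Dixon's gap test, in 7 tumors. Chance marks about 1 set in 20 where sets are independent and values normal. Several of these measures overlap and are skewed, so the count is not set against that rate. These are values as deposited, and no cause was tested.

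MMTV-Wnt1 replicate 1, the tumor whose Wnt1 probe was near 0, stood above its model mates in altered share (30.9%), gained share (23.4%), lost share (7.49%) and whole-chromosome changes (5). MMTV-Myc replicate 1 stood above the other MMTV-Myc tumors in altered share (7.44%), gained share (7.44%) and whole-chromosome changes (1), and MMTV-Myc replicate 4 in lost share (0.292%). BRCA1-/-;p53+/- replicate 5 had 355 breakpoints and 144 focal changes. MMTV-HRas replicate 1 had a lost share of 15.3%, and MMTV-HRas replicate 3 had 43 focal changes. MMTV-PyMT replicate 9 had 10 high-level gains.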

How the results depend on the processing

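Differences are suppressor loss minus oncogene models, with shares in percentage points and changes per tumor. Across the alternatives to the 10 class results, 671 values kept direction and side of the threshold (counts stayed within 1.5 times, which does not say which bins or genes were called), 36 kept direction but no longer passed, 107 moved and 21 reversed. Causes were not tested, except that within scans and slides fewer tumors entered. Signal over background, 2-color direction and tumor number limit the arrays. No paired analysis was possible because the labels give no replicate numbers. Bin size does not apply to genes, and date and slide entered the limma fits as random blocks.

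Over the 8 model means, where nothing passed, the differences were 25.7 (altered share), 124 (breakpoints), 9.71 (gained share), 15.98 (lost share), 2.70 (whole-chromosome changes), 48.1 (focal changes) and 23.4 (high-level gains), and with probes clipped 26.1, 24.4, 9.74, 16.4, 3.00, 6.56 and 2.23. In the same order they were 30.2, 124, 13.8, 16.4, 4.13, 34.3 and 27.0 within scan 1 (4 of these with an exact permutation p above 0.05, unadjusted), -15.99, -81.5, -10.0, -5.99, -3, -31.2 and -0.667 with slide as a block, -11.9, -105, -8.13, -3.78, -2.33, -38.3 and 0 within slide 1, and -20.1, -57.7, -11.9, -8.20, -3.67, -24 and -1.33 within slide 2. Lost share was 1.98 and high-level gains 44.7 within scan 2, and high-level gains 1.5 within scan 6, where no exact test could pass. No longer passing were whole-chromosome changes at a call threshold of 0.3 (1.15), gained share (4.78) and whole-chromosome changes (1.33) at the larger of 0.2 and 1 probe SD, breakpoints with normexp background (15.4, with focal changes reversed to -0.0948), lost share from the authors' intervals (5.13), breakpoints (111), whole-chromosome changes (3.58) and focal changes (39.9, clipped 5.19) with scan date as a block, whole-chromosome changes (2.44) with dye code as a block and without MMTV-PyMT (2.49), and without p53-/- breakpoints (48.2), gained share (5.48), whole-chromosome changes (1.79) and focal changes (17.8). Leaving out 1 tumor changed no call among these 7 measures.

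Of the 15 chromosomes gained or lost as deposited, the count was 7 at the probe SD threshold, 0 with normexp, 7 from the authors' intervals, 3 with probes clipped, 0 over model means (clipped 0), 23 without the 4 tumors of near-identical profiles and 23 without MMTV-Wnt1 replicate 1 as well, 0 with scan date as a block (clipped 0), 0 with slide as a block, 0 within scan 1, and 8, 23, 1, 6 and 9 without MMTV-Myc, MMTV-Her2/neu, p53-/-, MMTV-PyMT and MMTV-Wnt1.

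With normexp 5 bins passed, of which 1 was among the 7, and without BRCA1-/-;p53+/- replicate 5 there were 7, of which 4 were. Of the 7 bins that differ, the count was 2 at an adjusted p of 0.01, 2 with density-peak centring, 17 with loess, 27 of 500 kb, 30 of 2 Mb, 2 without the 4 near-identical tumors, 19 without MMTV-Wnt1 replicate 1, 2 without all 5, 3 in the shared range of probe SD, 1 with dye code as a block, 0, 0 and 0 within scans 1, 2 and 6, 122 and 0 within slides 1 and 2, 2, 2, 186, 232, 93, 0, 2 and 2 without BRCA1-/-;p53+/-, MMTV-Myc, C3(1)-Tag, MMTV-Her2/neu, MMTV-HRas, p53-/-, MMTV-PyMT and MMTV-Wnt1, 0 with the model as a random block and 4 with no account of the model. Leaving out 1 tumor gave 2 to 112.

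Of the 562 genes that differ, the count was 177 at an adjusted p of 0.01, 122 with normexp, 170 clipped, 230 without the 4 near-identical tumors, 240 without all 5, 366 with scan date, 224 with slide and 295 with dye code as a block, 0, 1 and 1165 within scans 1, 2 and 6, 0 and 0 within slides 1 and 2, 213, 353, 1970, 1050, 885, 240, 258 and 239 without the models in the order above, 6 with the model as a random block and 283 with no account of the model. Leaving out 1 tumor gave 335 to 804.

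With the dyes as labelled every sign turned, as constructed: Atp11b -0.34, AK076759 -0.30, Wnt2 -1.41, AK015500 0.51, 2310004I24Rik 0.34, Crisp1 0.57, AK132896 0.40, Brca1 0.68, Brca2 -0.25, Mad2l1 -0.40, Met -1.48, Fbxw7 -0.39, AK142592 -0.66 and Mrgprb1 -1.21. Reversed within slide 1 were Atp11b (-0.055), Wnt2 (-0.12), AK015500 (0.36), 2310004I24Rik (0.21), AK132896 (0.010), Brca1 (0.12), Brca2 (-0.028), Mad2l1 (-0.050), Met (-0.0045), AK142592 (-0.043) and Mrgprb1 (-0.42), and within slide 2 Atp11b (-0.19), AK076759 (-0.073), AK015500 (0.040), 2310004I24Rik (0.071), Crisp1 (0.031), Brca2 (-0.087), Mad2l1 (-0.058), Met (-0.058), Fbxw7 (-0.23) and Mrgprb1 (-0.033). Reversed within scan 2 was AK015500 (0.24), and within scan 6 Wnt2 (-0.076), AK132896 (0.16) and Mrgprb1 (-0.42).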

Other observations

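Deep losses, segments at or below -1 with discordant probes clipped, were few, with means of 0.625 per suppressor loss tumor and 0.172 per oncogene tumor, against 19.1 and 6.00 as deposited. At chr3:106258630-106389918 (mm8) 3 p53-/- tumors shared one of 5 probes, with means of -1.35, -1.07 and -1.39. BRCA1-/-;p53+/- replicate 3, which carried the Met amplicon, had 4 deep losses, on chromosomes 6, 7 and 14.

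The X chromosome, left out of all measures above, had a median log2 ratio between 0.76 and 1.79 in suppressor loss tumors. In oncogene tumors it lay between -0.05 and 1.13, the lowest being MMTV-PyMT replicates 1 and 4 at -0.05 and 0.36. The labels give female mice for the tumors, and the sex of the spleen donors was not given in the sources used here.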
